A study of Homo sapiens with 2 samples.

Results

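MYB and the MYC-MAX network comprise 10 genes here: MYB, MYC, MYCN, MAX, MXD1, MXD3, MXD4, MXI1, MNT and MGA. They were taken by symbol from a table of 50868 genes, and all 10 had a row. MYB is a transcription factor that haematopoietic progenitors and many acute myeloid leukaemias need for growth. MYC and MYCN are basic helix-loop-helix leucine zipper proteins that bind E-box DNA as dimers with MAX and activate genes of growth and ribosome synthesis. MXD1, MXD3, MXD4, MXI1, MNT and MGA also pair with MAX but act mainly as repressors, and MXD1 is known for its induction when myeloid cells differentiate.

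RNA was sequenced from KASUMI-1, a cell line of human acute myeloid leukaemia with the RUNX1-RUNX1T1 fusion. The USP6 group carries a lentivirus named after USP6, a ubiquitin-specific protease, and the pccl group carries the pccl lentivirus and serves as its control. Both groups are thus infected cells of 1 line, and the labels give no further treatment, no time after infection and no promoter of the vectors. The title of the series concerns the stabilisation of RUNX1 fusion proteins by USP6. Each group is 1 library, so differences could not be checked in replicates or tested. Intervals are 95% intervals that cover counting error only, do not cover differences between cultures, and may be too narrow where PCR copies of 1 molecule were read.

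The USP6 and pccl libraries held 12518795 and 12306442 counts, of which 45.6% and 49.9% lay in mitochondrial genes. USP6 itself had 70 counts in the USP6 library and 8 in the pccl library, or 0.340 and 0.0396 FPKM, under 1 FPKM in both. Of 10 marker genes of KASUMI-1 and the myeloid lineage, 9 reached 1 FPKM, and their summed level was 413 FPKM in the USP6 library and 250 FPKM in the pccl library. The myeloid marker CD38, with 8 counts in the USP6 library and 0 in the pccl library, did not. The expressed ones moved in both directions, with SPI1 at 230 FPKM in the USP6 library and 94.0 in the pccl library and CD34 at 4.19 and 12.6 FPKM. Markers of other lineages were partly present. The 5 T cell markers summed to 30.2 and 29.2 FPKM in the USP6 and pccl libraries, with CD3D at 22.6 and 27.8 FPKM, CD3E at 4.34 and 0.890 and CD2 at 3.10 and 0.156. The 3 B cell markers summed to 10.6 and 2.68 FPKM, mostly CD79A. The 5 markers of stroma and epithelium summed to 8.97 and 17.4 FPKM, nearly all EPCAM, with COL1A2 and KRT18 at 0 in both libraries. Of the 3 megakaryocyte markers ITGA2B had 1.01 and 0.257 FPKM, and PF4 and PPBP were at 0 in both, while the 3 monocyte markers summed to 1.23 and 0.988 FPKM. Whether these markers bear on the results below was not tested, and in such bulk RNA fewer cells with a message and less message per cell cannot be told apart.

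MYB was lower and MYC, MXD3 and MXD4 were higher in the USP6 library, while MAX, the shared partner, was at similar levels in both. MYB had 1.43 FPKM in the USP6 library and 4.72 in the pccl library, whereas MYC had 1.43 and 0.199 FPKM. MXD3 had 4.05 and 1.30 FPKM and MXD4 had 6.58 and 2.14 FPKM. FPKM scales the count of a gene to its length and to the library total. Genes reaching 1 FPKM in at least 1 library are called expressed, which holds for 6 of the 10 members, namely MYB, MYC, MAX, MXD3, MXD4 and MGA. MYC reached it in the USP6 library alone and MGA in the pccl library alone. On the scale of log2((USP6 + 1)/(pccl + 1)) of FPKM, which understates differences of low genes, 3 of these 6 were higher by at least 1.5-fold, against 27.7% of all 10153 expressed genes. By the same limit 2 of the 6, MYB and MGA, were lower, against 24.3% of expressed genes. At 2-fold, 3 members were higher and 1 was lower, against 13.7% and 11.4% of expressed genes. With only 6 expressed members and so many of all genes past the limits, these counts show nothing particular to the group.

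**Figure D1:**
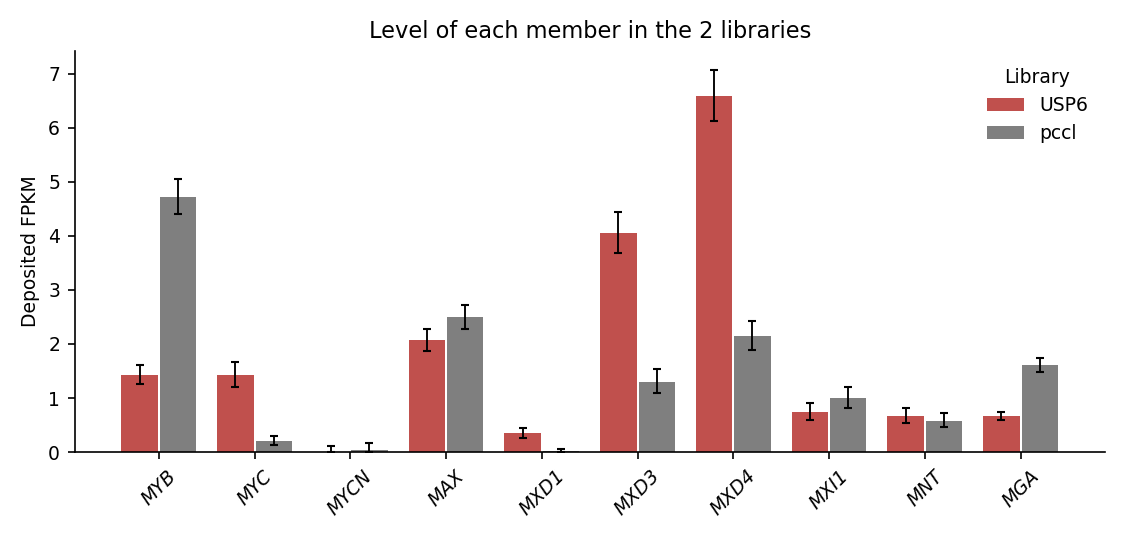
Deposited FPKM of each of the 10 members in the USP6 library and the pccl library, with 95% Poisson counting intervals as bars. MXD4 and MXD3 stand highest in the USP6 library, at 6.58 and 4.05 FPKM, and MYB stands highest in the pccl library, at 4.72 FPKM.

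MYB was read 251 times in the USP6 library and 813 times in the pccl library. Its FPKM was 3.29-fold lower in the USP6 library, with a counting interval of 2.86 to 3.81. MYB (ENSG00000118513) is listed on chromosome 6 from 135181315 to 135219173, and its antisense gene MYB-AS1 had 0 counts in both libraries. MYBL2, the relative of MYB that acts in proliferating cells, was far more abundant, with 75.9 FPKM in the USP6 library and 59.0 in the pccl library, 1.29-fold higher (1.22 to 1.36). The other relative, MYBL1, stayed under 1 FPKM in both, with 13 and 27 counts.

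MYC had 160 counts in the USP6 library and 22 in the pccl library. The ratio of FPKM was 7.15, with a wide counting interval of 4.56 to 11.7 that follows from the 22 counts. MYC (ENSG00000136997) is listed on chromosome 8 from 127735434 to 127741434. Its neighbour PVT1, a noncoding gene at the same locus, had 8.99 FPKM in the USP6 library and 4.30 in the pccl library, 2.09-fold higher (1.90 to 2.31). MYCN, the member best known from neuroblastoma, had 0 counts in the USP6 library and 1 in the pccl library. With 3 counts taken as the limit that a count of 0 allows, MYCN could have reached 0.0921 FPKM in the USP6 library, while the exact Poisson interval drawn in the plot of FPKM ends at 0.113 FPKM. No fold was formed.

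MAX (ENSG00000125952, chromosome 14 from 65006174 to 65102695) had 386 counts in the USP6 library and 458 in the pccl library, or 2.07 and 2.50 FPKM. It was 1.21-fold lower in the USP6 library (1.05 to 1.39), a smaller difference than that of any of the members past the limit. Of 14 genes that overlap a member, 4 had any count, and 1 of these, the protein-coding gene FNTB, lies across the MAX locus on the other strand, with 16 and 39 counts and no shared exonic base.

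Among the MXD genes and MXI1, MXD3 and MXD4 were higher in the USP6 library past the 1.5-fold limit, against 27.7% of all expressed genes, while MXD1 and MXI1 were not expressed by the level used here. MXD4 (ENSG00000123933, chromosome 4 from 2247432 to 2262294) had 754 counts in the USP6 library and 241 in the pccl library, a 3.08-fold difference (2.66 to 3.57). MXD3 (ENSG00000213347, chromosome 5 from 177301461 to 177312757) had 438 and 138 counts, 3.12-fold higher (2.57 to 3.81), so the intervals of these 2 folds overlap almost wholly. Reads of MXD3 could have been split with its neighbours, because 22.5% of its exonic bases also belong to PRELID1 on the other strand and 18.0% to RAB24, and whether counting used strand is not given in the sources used here. PRELID1 had 1116 and 854 counts and RAB24 147 and 71, both higher in the USP6 library.

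MXD1 was nearly unread in the pccl library. It had 57 counts in the USP6 library and 4 in the pccl library, or 0.348 and 0.0248 FPKM, both under the level taken as expressed. The ratio was 14.0, with a counting interval of 5.18 to 53.2. SNRNP27 shares 3.73% of the exonic bases of MXD1 and had 101 and 146 counts, lower in the USP6 library. MXI1, a closely related repressor, had 81 and 107 counts, or 0.738 and 0.992 FPKM, and its ratio of 0.744 had an interval of 0.551 to 1.0. On the pseudocount scale MXI1 was at -0.20.

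The sequence before the starts of MXD1, MXD3 and MXD4, and before that of MYB, is shown because, MYC apart, these members had the largest ratios of FPKM in either direction, taken without the added 1. Sequences are from the RefSeq promoter table (GRCh38.p14), from which 14 windows of 9 members were read. No window of MYC was read. Each window holds the 250 bases before a RefSeq start, and only the longest stretch outside every exon of GENCODE release 29 is printed, 5′ to 3′ on the strand of the gene. The MAX-dimer E-box CACGTG, which reads the same on both strands, is in capitals.
MYB, chr6:135181058-135181307, plus strand, outside annotated genes: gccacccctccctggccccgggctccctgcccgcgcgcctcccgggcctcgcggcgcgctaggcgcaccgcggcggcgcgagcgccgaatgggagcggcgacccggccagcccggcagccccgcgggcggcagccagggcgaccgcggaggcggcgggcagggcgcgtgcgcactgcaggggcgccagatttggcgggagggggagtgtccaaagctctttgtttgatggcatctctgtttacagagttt
MXD1, chr2:69914859-69915040, plus strand, within the annotated MXD1 gene but in no exon: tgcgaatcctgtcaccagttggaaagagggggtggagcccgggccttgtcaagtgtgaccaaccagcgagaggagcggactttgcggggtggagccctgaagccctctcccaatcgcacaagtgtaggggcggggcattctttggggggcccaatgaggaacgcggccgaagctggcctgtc
MXD3, chr5:177312758-177313002, minus strand, upstream of the annotated gene: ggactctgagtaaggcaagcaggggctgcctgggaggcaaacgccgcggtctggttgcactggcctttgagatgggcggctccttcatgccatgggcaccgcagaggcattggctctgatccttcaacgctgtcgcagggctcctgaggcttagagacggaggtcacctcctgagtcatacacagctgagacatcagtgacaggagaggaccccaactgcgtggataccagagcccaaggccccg
MXD4, chr4:2262295-2262359, minus strand, upstream of the annotated gene: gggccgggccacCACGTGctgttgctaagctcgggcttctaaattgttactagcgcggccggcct

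The E-box was in 2 of the 14 member windows, 1 each for MXD4 and MNT, against 6.34% of 35116 windows of the same length in the table. The share among member windows was thus the larger, but it rests on 2 windows and was not tested. Windows on chromosome 8, and so any of MYC, were left out of the 14 but not of the 35116. Some members gave several windows. The windows of MXD4 and MNT with an E-box were also richer in G and C (70.4% and 78.0%) than the median of all windows. In MXD4 it begins at position -238 and in MNT at position -193, counted back from -1 at the base before the RefSeq start. The core of the MYB site, searched as AACNG on both strands, was in 70.6% of all windows and once in each of the 4 windows of MYB, MXD1, MXD3 and MXD4. A match is a description of the letters alone. The 250 bases before MYB were 75.6% G or C, those before MXD4 70.4%, those before MXD1 64.4% and those before MXD3 60.4%, against a median of 58.0% over all windows.

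MNT and MGA, the larger MAX-binding repressors, differed from each other in their deposited FPKM, though not in direction after the centring on GC content given below. The centred value of MNT is mostly the subtracted trend. MNT, expressed in most cell types and an antagonist of MYC, had 95 counts in the USP6 library and 82 in the pccl library, or 0.661 and 0.581 FPKM. Its ratio of 1.14 had a counting interval of 0.839 to 1.55, which holds 1. MGA, which joins MAX and the E2F6 protein in a polycomb complex, had 265 and 635 counts, or 0.663 and 1.62 FPKM. It was 2.44-fold lower in the USP6 library (2.11 to 2.82), and with 1 FPKM added it stood at -0.65, where the limit for lower genes is a log2 value of 0.58 below 0.

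The ratios of all genes followed the GC content of their transcripts. With expressed genes ranked by GC and cut into 10 classes, the class of lowest GC had a median log2 ratio of -0.37 and that of highest GC one of 0.74. MXD3 and MXD4, at 61.3% and 57.6% GC, lay where the trend of all genes was at 0.59 and 0.39, and their own values were 1.14 and 1.27. MYB and MGA, at 43.9% and 42.0% GC, lay where it was at -0.24 and -0.29. Centred on the trend, MYB was at -1.0, MYC at 0.82, MXD4 at 0.88, MXD3 at 0.54 and MGA at -0.37, so MXD3 and MGA no longer passed 1.5-fold. MNT was at -0.53 after centring and 0.07 before, so that MNT and MGA were then both below 0 and MNT the lower, and MAX at -0.26 and -0.19. Which part GC content has in these differences was not tested. For members near 0 FPKM the pseudocount holds the ratio near 0 while the whole trend is subtracted, so the centred values of MYCN and MXD1 are not informative. MNT and MXI1 were also under 1 FPKM in both libraries, so the same limit holds in part for them. The -0.53 of MNT is mostly the subtracted trend of 0.60.

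**Figure D2:**
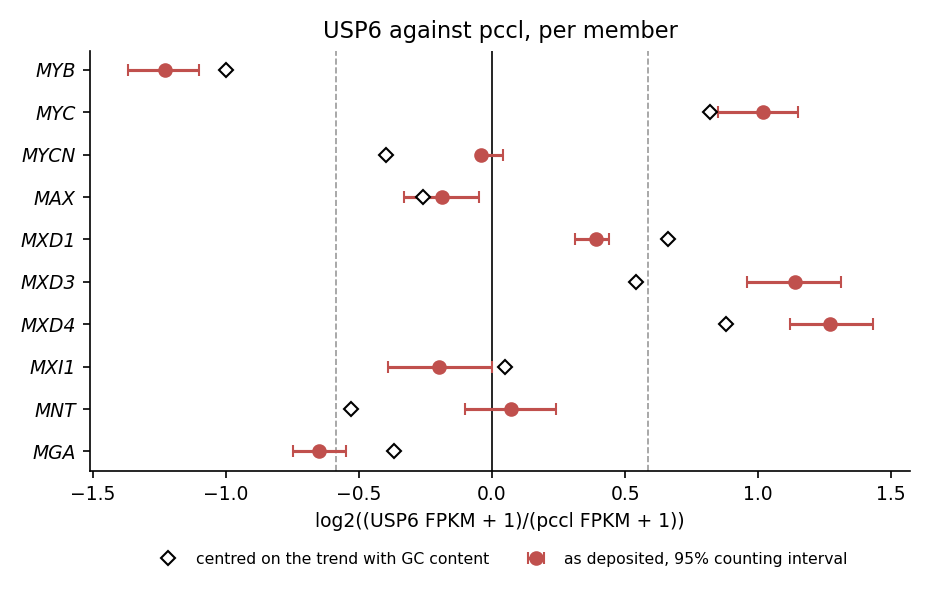
The log2 ratio of USP6 to pccl FPKM, with 1 added to each, is shown for the 10 members as filled points with 95% counting intervals and as open diamonds after centring on the GC trend. Dashed lines mark 1.5-fold. MXD3 lies past the line at 1.14 as deposited and inside it at 0.54 after centring.

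**Figure D3:**
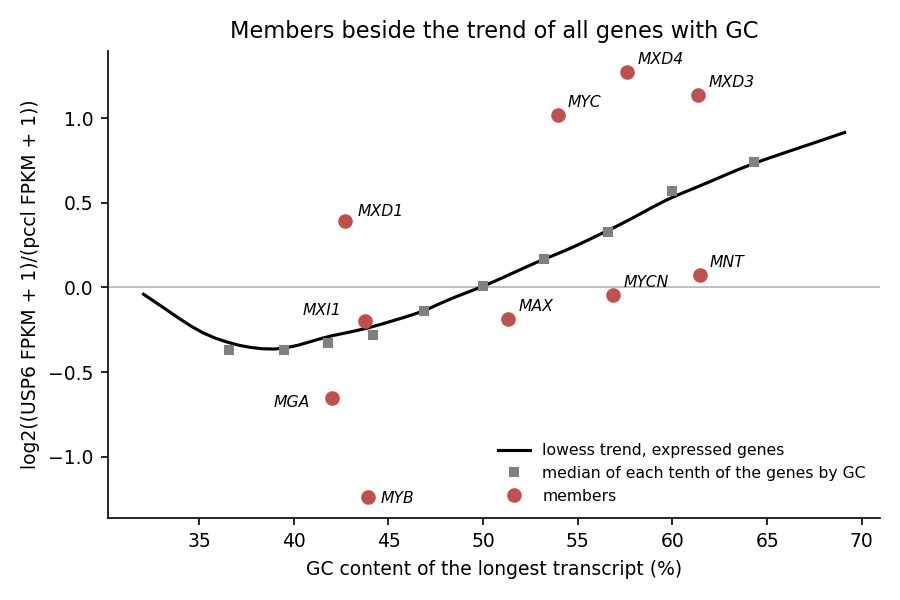
The log2 ratio of USP6 to pccl FPKM, with 1 added to each, is plotted against the GC content of the longest transcript in percent. The black line is the lowess trend over expressed genes, squares are medians of 10 classes of these genes by GC and red points are the members. MYC, MXD3, MXD4, MXD1 and, by little, MXI1 lie above the line, and MYB, MGA, MNT, MAX and MYCN lie below it. MXD1, MXI1, MNT and MYCN were under 1 FPKM in both libraries.

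Levels between members depend on the gene length behind the deposited FPKM. In 87.4% of 11260 genes with more than 20 counts in the pccl library, that length equalled, within 1%, the sum of all distinct exons of the gene, with overlapping exons of different transcripts each counted in full. The length of the merged exons was met in only 10.7%. For MYC the length used was 8963 bases against 3001 merged exonic bases, a factor of 2.99, for MAX the factor was 3.37, for MYB 2.55 and for MXD4 1.30. The plain ratio of 1 gene between libraries is not touched by this, but levels are, and so is the log2 ratio with 1 FPKM added. Per merged exon length that log2 ratio was 1.72 for MYC, -1.49 for MYB, 0.71 for MXD1 and -0.84 for MGA, each farther from 0 than on the deposited scale. Per merged exon length, MYC was at 4.26 FPKM in the USP6 library and 0.596 in the pccl library, and MXI1 at 1.40 and 1.89.

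On that scale the USP6 library had MXD4 highest at 8.53 FPKM, then MAX at 6.96, MXD3 at 6.79, MYC at 4.26, MYB at 3.65, MXI1 at 1.40, MGA at 1.20, MNT at 0.869 and MXD1 at 0.717. In the pccl library the order began with MYB at 12.0 and MAX at 8.40, followed by MGA at 2.92, MXD4 at 2.77, MXD3 at 2.18, MXI1 at 1.89, MNT at 0.763, MYC at 0.596 and MXD1 at 0.0512 FPKM. MYB thus stood above MAX in the pccl library and below it in the USP6 library. On the deposited scale the intervals of MYB (1.26 to 1.62 FPKM) and MYC (1.21 to 1.66) overlapped in the USP6 library, as did those of MAX (2.27 to 2.73) and MXD4 (1.88 to 2.43) in the pccl library. The overlap of MAX and MXD4 belongs to the deposited lengths alone. Per merged exon length they were far apart in the pccl library, at 8.40 and 2.77 FPKM.

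Set against MAX in the same library, a comparison that does not depend on how the libraries are scaled, MYC and the MXD genes were higher in the USP6 library. Such ratios, and the shares given below, still carry the trend with GC content. That trend was at 0.59 for MXD3, 0.39 for MXD4, 0.20 for MYC, 0.07 for MAX and -0.29 for MGA. MYC stood at 0.612 times MAX in the USP6 library and at 0.0709 times MAX in the pccl library per merged exon length, an 8.63-fold difference (5.37 to 14.4). MXD3 relative to MAX differed 3.77-fold (2.96 to 4.80) and MXD4 3.71-fold (3.03 to 4.55). The ratio of MXI1 to MAX differed by 0.898-fold (0.644 to 1.25) and that of MNT to MAX by 1.37-fold (0.980 to 1.93), both intervals holding 1. MGA relative to MAX was 2.02-fold lower (1.65 to 2.47).

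MYC was also higher relative to its antagonists, save MXD1. Against MXD4 it was at 0.499 in the USP6 library and 0.215 in the pccl library, 2.32-fold higher (1.44 to 3.90), and against MXD3 it was 2.29-fold higher (1.39 to 3.91). Against MNT the difference was 6.28-fold (3.59 to 11.2), against MXI1 9.61-fold (5.51 to 17.1) and against MGA 17.4-fold (10.8 to 29.2). Against MXD1 the ratio between libraries was 0.510, with an interval of 0.123 to 1.6. MYC messages were fewer than those of MXD4 in both libraries on either length.

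Summed over the 8 partners of MAX, FPKM per merged exon length came to 23.8 in the USP6 library and 11.2 in the pccl library, which is 3.42 and 1.33 times MAX. MXD1, MXD3 and MXD4 together made up 67.5% of the partner messages in the USP6 library and 44.6% in the pccl library. MYC and MYCN made up 17.9% and 5.60%, and MNT with MGA 8.70% and 32.9%. On the deposited FPKM the same 3 groups were 75.9% and 50.3%, 9.86% and 3.35%, and 9.16% and 31.9%. The direction of each was thus the same on both lengths, and MYC had the larger share per merged exon length.

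**Figure D4:**
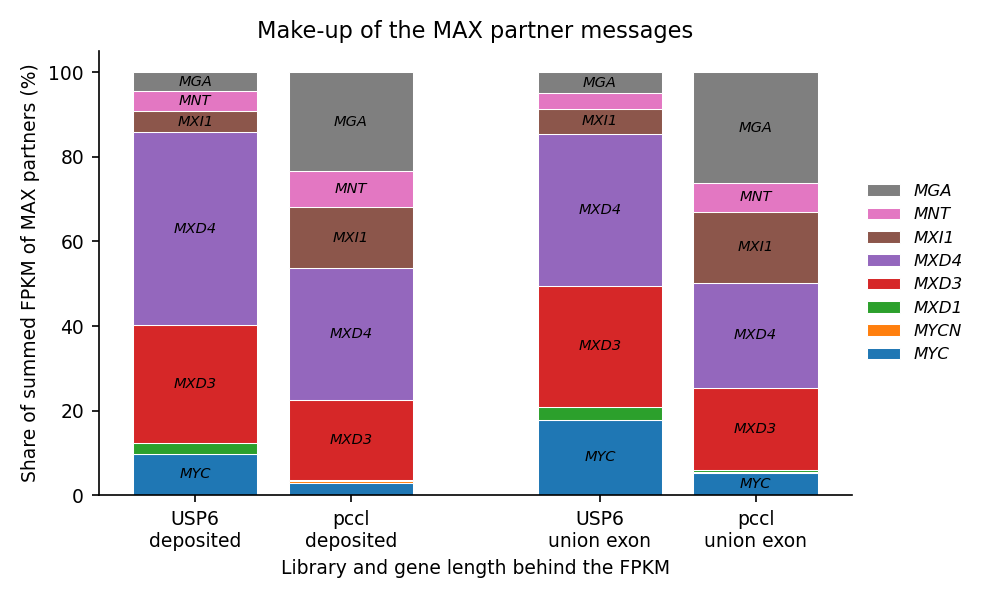
Each bar gives the share, in percent, of each of the 8 MAX partners in their summed FPKM, for the USP6 and pccl libraries, on the deposited FPKM (left pair) and per merged exon length (right pair). MGA takes 4.59% in the USP6 library and 23.5% in the pccl library on the deposited scale, and MXD4 takes 45.5% and 31.1%.

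Of the genes reported elsewhere as activated by MYC, more were lower than higher in the USP6 library. By the 1.5-fold limit, 15 of its 40 expressed genes (37.5%) were lower and 2 (5.00%) were higher, against 24.3% lower and 27.7% higher of all expressed genes. The median log2 ratio was -0.31, against 0.06 over all expressed genes. Centred on GC the median was -0.57, against -0.02 over all expressed genes. The lactate dehydrogenase gene LDHA had 1.76 FPKM in the USP6 library and 16.8 in the pccl library, 9.56-fold lower (8.56 to 10.7). The transferrin receptor gene TFRC was 7.12-fold lower (6.52 to 7.78), the ornithine decarboxylase gene ODC1 4.69-fold (4.31 to 5.10) and the dyskerin gene DKC1 4.49-fold (3.83 to 5.27). These counts describe the list, and nothing particular to it was tested.

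Of 10 expressed genes reported as repressed by MYC, 3 were higher and 2 lower, shares close to the 27.7% and 24.3% of all expressed genes, and their median was 0.10. The myeloid factor gene CEBPA had 21.1 and 5.40 FPKM in the USP6 and pccl libraries and the stress gene GADD45B 9.86 and 3.41 FPKM. The ferritin gene FTH1 was 2.75-fold lower (2.54 to 2.99) and the integrin gene ITGB1 2.11-fold lower (1.91 to 2.33).

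Of 19 expressed genes reported as activated by MYB, 9 (47.4%) were lower and 5 (26.3%) higher, against 24.3% and 27.7% of all expressed genes, with a median of -0.53. The share of higher genes was thus near that of all genes, and MYC is itself one of them. GFI1, a repressor needed for granulocyte development, had 4 counts in the USP6 library and 894 in the pccl library. The proteinase 3 gene PRTN3 had 16.6 and 115 FPKM, 6.96-fold lower (6.13 to 7.94), and CDK6, a cell cycle kinase, 11.2 and 48.1 FPKM. The myeloperoxidase gene MPO was opposite to these, with 122 FPKM in the USP6 library and 27.4 in the pccl library. Among 13 expressed MYB cofactors 1 (7.69%) was higher and 1 lower, fewer than the shares of all genes, and their median was 0.03. The higher one was KMT2A, a histone methyltransferase, with 3.73 and 0.466 FPKM, which reached 1 FPKM in the USP6 library alone. The lower one was CDK6, which is on both lists. TAF12 and NLK, the next by size, stayed inside the limit at 0.49 and -0.50.

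Of 17 expressed regulators of MYC protein stability, 7 (41.2%) were lower and 0 higher, against 24.3% lower and 27.7% higher of all expressed genes, with a median of -0.55. FBXW7, the ubiquitin ligase receptor for MYC, had 0.350 FPKM in the USP6 library and 1.25 in the pccl library, 3.57-fold lower (2.75 to 4.67). SET, an inhibitor of the phosphatase PP2A, had 32.4 and 76.6 FPKM, the PP2A subunit gene PPP2R5A was 2.06-fold lower (1.70 to 2.50) and the kinase gene PIM1 1.63-fold lower (1.54 to 1.73). SET and PIM1 are known to favour MYC stability and FBXW7 and PPP2R5A to oppose it, so genes of opposite action were both lower.

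In the MGA-containing polycomb complex PRC1.6, 6 of 13 genes (46.2%) were lower and 2 (15.4%) higher, against 24.3% and 27.7% of all expressed genes, with a median of -0.55. CBX1 and CBX3, which bind methylated histone H3, had 2.49 and 14.9 FPKM and 2.49 and 11.8 FPKM in the USP6 and pccl libraries. TFDP1, the dimer partner of E2F proteins, was 5.20-fold lower (4.66 to 5.82) and RING1, a ubiquitin ligase of polycomb complexes, 2.32-fold higher (1.99 to 2.71). Of 11 expressed SIN3-HDAC corepressor genes, through which MXD proteins, MXI1 and MNT act, 4 (36.4%) were lower and 1 (9.09%) higher. The shares of all expressed genes were 24.3% and 27.7%, and the median of the list was 0.07. HDAC2, at -0.80, is counted as lower in this list and in PRC1.6, and HDAC1, at 0.07, is also on both. SIN3B had 470 counts in the USP6 library and 31 in the pccl library, 14.9-fold higher (10.4 to 22.2). Its levels were 2.58 and 0.173 FPKM, so it reached 1 FPKM in the USP6 library alone. SIN3A was within the limit at 4.38 and 3.48 FPKM. SAP30 was 4.22-fold lower (2.75 to 6.68), SUDS3 2.31-fold (2.03 to 2.64) and RBBP7 2.47-fold lower (2.07 to 2.96).

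Of 17 MYC coactivators and cofactors, 4 (23.5%) were higher and 2 (11.8%) lower, their median being -0.01, and the share of higher genes was near the 27.7% of all expressed genes, of which 24.3% were lower. CDK9, the elongation kinase, had 28.3 and 9.01 FPKM in the USP6 and pccl libraries, and TRRAP, a scaffold of acetyltransferase complexes, 4.35 and 1.96 FPKM. HCFC1 was 4.19-fold lower (3.46 to 5.11) and the chromatin remodelling gene BPTF 2.80-fold lower (2.40 to 3.28). Both reached 1 FPKM in the pccl library alone, with 0.742 and 0.766 FPKM in the USP6 library. Among 6 expressed relatives of the members, of which 1 (16.7%) was higher and 0 lower, MLXIP, which senses glucose metabolites with MLX, was past the limit with 12.0 and 4.37 FPKM, 2.74-fold higher (2.56 to 2.94). USF1 and TFAP4, other E-box binding factors, were at 0.54 and -0.37. Of 7 expressed noncoding genes, 1 (14.3%) was higher, namely PVT1, and 2 (28.6%) lower, namely DANCR (6.68 and 21.4 FPKM) and SNHG16 (8.13 and 16.2 FPKM), while GAS5 had 29.2 and 20.1 FPKM, inside the limit at 0.52.

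**Figure D5:**
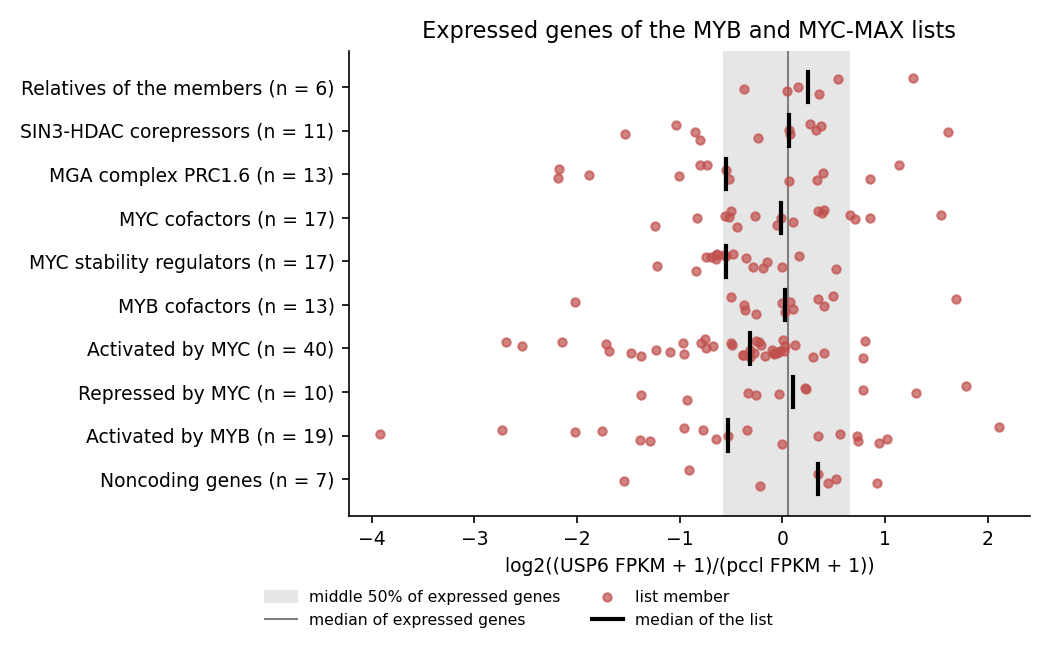
Each red point is 1 expressed gene of a list, placed by the log2 ratio of USP6 to pccl FPKM with 1 added to each, and black bars are list medians. The grey band holds the middle 50% of all expressed genes, from -0.57 to 0.65. The lists of MYC stability regulators and of PRC1.6 have medians of -0.55, and the genes reported as activated by MYC lie mostly below 0 with a median of -0.31.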

How the data were processed

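One library was sequenced for each group, and GEO's labels and the column names assign each column to its group. Whole-number counts per gene were deposited by the authors. The FPKM deposited by the authors equal count over length and column total, with the same length in both libraries within 0.098% for 16030 genes. HISAT2 2.0.4, StringTie 1.3.3b and edgeR appear, without roles, in the submitters' processing notes. Build, annotation and strandedness are not given in the sources used here. Of 50111 identifiers found in GENCODE release 29 (GRCh38), 94.8% had the same locus, as did all 10 members.

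Genes of 1 symbol were summed (50464 symbols). Differences are log2((USP6 + 1)/(pccl + 1)) of FPKM among genes that reach 1 FPKM in either library, and a gene counted as higher or lower past 1.5-fold (0.58). Fold intervals are exact conditional binomial (Clopper-Pearson) intervals at 95%, and ratios of 2 genes have exact conditional odds ratio intervals. No fold was formed where both counts were at or under 3. With 0 residual degrees of freedom no p-value was made, although the table holds counts. GC content is that of the longest release 29 transcript, with a lowess trend of span 0.3. Up to 4 expressed genes per list, those of largest absolute ratio, were named, with all members and genes overlapping them. SIN3A, HDAC1, HDAC2, FBXO28, USP37, MYBL1 and the single cell-type markers were named after their values were seen. The members and the 10 lists were chosen with earlier results of these data known, and overlap between lists was allowed. The steps were tested on simulated counts with 3-fold differences, counting error only and no GC trend. All 100 genes set higher and all 100 set lower were recovered, and 141 of 9273 unchanged genes were called. The changed genes had a mean of at least 5 FPKM, which no member reached, so recovery at the level of the members was not tested. R 4.3.3 with edgeR 4.0.16 (for the trimmed mean of M values) and Python 3.11.15 with statsmodels 0.14.6, SciPy 1.17.1 and matplotlib 3.10.9 served for the analysis. Alternatives were other pseudocounts, filters, scalings, limits, GC centring and single identifiers, and, chosen after seeing the data, FPKM per merged exon length.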

Additional observations from a re-analysis of the deposited data

How the results depend on the processing

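MYB and MGA were lower, and MYC, MXD1, MXD3 and MXD4 higher, in the USP6 library under all 11 alternatives that give a value per gene. Most of these could not have turned a sign. Other pseudocounts and gene lengths never do, single identifiers left the members unchanged, and the scalings were only 0.891 to 1.08. GC centring alone could have reversed these members, and its value for MXD1 is not informative. Over the 11 alternatives, the log2 ratio of MYB ran from -1.65 to -0.60, that of MYC from 0.31 to 2.35, MXD4 from 0.70 to 1.58, MXD3 from 0.52 to 1.57 and MGA from -1.17 to -0.22. The ends come from pseudocounts of 0.1 and 5, and GC centring put MXD3 at 0.54. MNT and MXI1 changed sign under GC centring, to -0.53 and 0.05, and MNT was then below MGA at -0.37. Both were under 1 FPKM in both libraries, and their signs turned with the subtracted trend, 0.60 for MNT and -0.24 for MXI1.

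As reported, 3 members were higher and 2 lower, and 2808 genes were higher and 2465 lower. With a pseudocount of 5 these were 1 and 1 member and 1096 and 934 genes, and with a filter of 5 FPKM, which only MXD4 passed, 1 and 0 members and 1358 and 1183 genes. When the average over the libraries had to reach 1 FPKM, 5 members passed, MYC did not, and 2 were higher and 2 lower, with 2435 and 2206 genes. At 2-fold, 1 member was lower (MYB) with 1396 and 1156 genes. Scaled to the same FPKM sum, 3 members were higher and 1 lower, and after GC centring 2 and 1. The scaling to the same sum moved the median of all genes from 0.06 to 0.20, and depth from nuclear genes moved it to -0.05. The medians of genes reported as activated by MYC (-0.57 to -0.19) or MYB (-1.29 to -0.22), of MYC stability regulators (-0.71 to -0.17) and of PRC1.6 (-0.90 to -0.37) stayed below 0 under 14 alternatives. Those of the other 6 lists took both signs. GC centring put the median at -0.37 for PRC1.6, -0.56 for MYC stability regulators and -0.47 for genes activated by MYB. It moved that of the SIN3-HDAC corepressors from 0.07 to -0.39, of the relatives from 0.25 to -0.07 and of noncoding genes from 0.35 to 0.68. MYC cofactors were then at -0.16, MYB cofactors at -0.22 and genes repressed by MYC at 0.07. The cause of these moves was not tested. Changes of 1 member relative to another do not depend on gene length, and counts in place of FPKM gave the same values. With 22 MYC and 4 MXD1 counts in the pccl library, depth limits those ratios. No paired analysis was possible because each group has 1 library, and no replicate could be left out.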
